A study of Mus musculus with 2 samples.

Results

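The 39 Hox genes of the mouse lie in 4 clusters, Hoxa on chromosome 6, Hoxb on chromosome 11, Hoxc on chromosome 15 and Hoxd on chromosome 2. Peaks were taken as belonging to them where the deposited table assigned a peak to an Ensembl gene identifier whose span, strand and gene ontology terms placed it on a Hox gene of the RefSeq annotation (GRCm38.p6). Antisense genes were left out. This gave 11 peaks at 10 genes, out of 58076 peaks in the table, and no peak was assigned to the other 29 Hox genes. Open DNA was read out by ATAC-seq, where Tn5 transposase inserts adapters into accessible stretches. There were 2 libraries from mouse heart at 15 days of age, 1 from Ythdc1 CKO mice, with a cardiac-specific knockout of Ythdc1, and 1 from Ythdc1flox/flox mice as its control. Ythdc1 encodes a protein of the nucleus that binds N6-methyladenosine in RNA, and both groups were on normal chow. The labels give neither the Cre driver nor the number of animals per library. The 1 peak assigned to Ythdc1, at its promoter, had 314 counts in Ythdc1 CKO and 358 in Ythdc1flox/flox (ratio 0.916, interval 0.785 to 1.07), and a promoter peak does not check the deletion. With 1 library per genotype no difference below has a replicate check, no p-value was computed, and every interval covers counting error only.

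Hox genes encode homeodomain transcription factors that give cells their position along the body axis. In each cluster the genes lie in the order in which they are used from head to tail, and genes of the same number in different clusters are paralogues. In the embryo, anterior Hox genes such as Hoxb1 and Hoxa3 respond to retinoic acid and are active in progenitors of the outflow tract, while posterior genes pattern the trunk, limbs and tail. Clusters that are silent in a cell are bound by Polycomb complexes, and most Hox promoters are rich in CpG.

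The promoters themselves show this base composition. RefSeq promoter windows were at hand for 22 of the 39 genes, as 24 windows, and the 250 bases before each start site were read. They held a median of 58.6% G or C and 12.5 CpG, against 52.4% and 6 over 32817 promoter windows of all genes. None of the 24 Hox start sites lay inside a peak, whereas 38.7% of all start sites did, and 43.6% of the 28354 windows whose GC content lay within the range of the Hox promoters. A peak lay within 1 kb of the start in 2 of the 24 Hox windows, against 47.4% of all windows. The windows cover the clusters unevenly, with all 9 genes of Hoxd, Hoxb1, Hoxb4 and Hoxb8 of Hoxb, and Hoxc4 alone of Hoxc. Hoxb6, Hoxb9 and Hoxc13, which had a promoter peak, had no window. These shares, and those of the motifs below, hold for the covered genes alone. The 4 promoters below are shown 5′ to 3′ on the strand of the gene, with each CpG in capitals, because they span the range from the start sites nearest to a peak to one far from any.
Hoxa10 promoter: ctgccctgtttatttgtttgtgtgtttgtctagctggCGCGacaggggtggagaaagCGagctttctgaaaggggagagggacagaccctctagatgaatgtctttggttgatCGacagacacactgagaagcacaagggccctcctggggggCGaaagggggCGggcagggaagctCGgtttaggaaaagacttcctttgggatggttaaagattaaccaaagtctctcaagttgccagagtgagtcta
Hoxa5 promoter: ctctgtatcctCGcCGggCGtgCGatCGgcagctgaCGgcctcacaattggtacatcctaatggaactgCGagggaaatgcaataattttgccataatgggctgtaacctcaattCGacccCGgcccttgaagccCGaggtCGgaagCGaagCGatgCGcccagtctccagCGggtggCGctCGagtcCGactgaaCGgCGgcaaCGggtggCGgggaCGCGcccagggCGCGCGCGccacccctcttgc
Hoxd4 promoter: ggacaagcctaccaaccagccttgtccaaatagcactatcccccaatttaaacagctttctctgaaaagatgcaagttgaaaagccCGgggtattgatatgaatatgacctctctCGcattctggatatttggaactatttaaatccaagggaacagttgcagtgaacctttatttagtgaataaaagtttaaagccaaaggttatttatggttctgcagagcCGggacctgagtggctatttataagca
Hoxd13 promoter: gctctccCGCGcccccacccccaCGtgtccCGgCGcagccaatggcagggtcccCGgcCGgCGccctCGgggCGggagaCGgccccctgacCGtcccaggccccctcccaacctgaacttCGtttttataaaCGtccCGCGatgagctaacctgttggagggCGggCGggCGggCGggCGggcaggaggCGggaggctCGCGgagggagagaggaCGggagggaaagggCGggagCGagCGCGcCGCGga
The Hoxa10 window (chr6:52240855-52241104, minus strand, RefSeq, GRCm38.p6) holds 7 CpG, and its start lay 190 bp from the nearest peak. A second Hoxa10 window, not shown (chr6:52234940-52235189), holds 20 CpG, and its start lay 5522 bp from the nearest peak. The Hoxa5 window (chr6:52204588-52204837, minus strand) holds 28 CpG, with a peak 496 bp inside the gene. The Hoxd4 window (chr2:74721728-74721977, plus strand) holds 3 CpG and the Hoxd13 window (chr2:74667975-74668224, plus strand) holds 31, and their starts lay 5802 bp and 47557 bp from the nearest peak. CpG number and distance to a peak thus did not run in parallel in these 4 examples, which were chosen after their values were seen. The CCAAT box (CCAAT on either strand) was present in 14 of the 24 Hox windows, 58.3%, against 33.8% of all windows. The composite PBX-HOX motif, TGATNNAT on either strand, was present in 4 of 24, 16.7%, against 7.69% of all windows. TATAAA was present on either strand in 4 Hox windows, 16.7%, against 12.4% of all windows. The palindrome TAATTA was present in 2 windows, both of Hoxd11, 8.33% against 4.85% of all windows. These matches describe the letters alone.

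Few Hox start sites had a peak nearby in these hearts. Over all 39 genes, no 5′ end of the RefSeq span lay inside a peak, 6 lay within 1 kb of a peak and 22 within 10 kb. The median distance was 6.40 kb and the largest 47.6 kb, at Hoxd13. A peak within 1 kb of an annotated start site, the authors' promoter class, was assigned to 7 of the 39 Hox genes, 17.9%, against 55.6% of 21900 protein-coding genes, a share that counts a gene as without a peak where no identifier could be matched to it. The class counts starts of any transcript, and Hoxa7 has a promoter peak although its RefSeq start lay 2913 bp away. Counts outside called peaks were not used here, so a Hox gene without a peak has no level below.

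**Figure D1:**
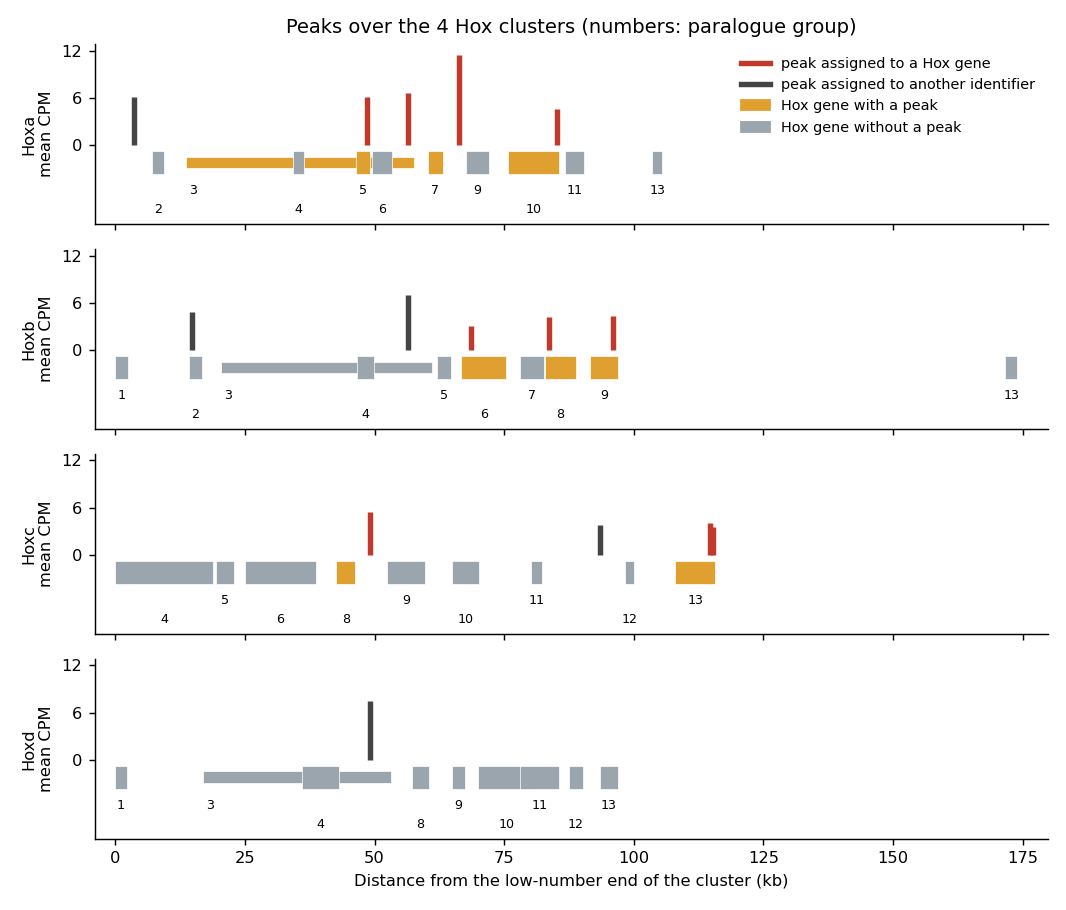
Maps of the 4 clusters drawn from the low-number end, with distance in kb on the x axis, genes as boxes labelled by paralogue number, and each peak as a bar whose height is its mean CPM over both libraries. The map of Hoxa shows 10 of its 11 genes and 4 of their 5 peaks, and Hoxd holds 1 peak, assigned to another identifier.

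The clusters differed in how many genes had a peak. In Hoxa it was 5 of 11 genes (among them Hoxa3, Hoxa5, Hoxa7 and Hoxa10), in Hoxb 3 of 10 (Hoxb6, Hoxb8 and Hoxb9), in Hoxc 2 of 9 (Hoxc8, and Hoxc13 with 2 peaks) and in Hoxd 0 of 9. Together, 10 of the 39 Hox genes had a peak of any class, against 64.2% of protein-coding genes. In that share, genes without a matched identifier again count as without a peak. Counting every peak over the span from the first to the last Hox gene, whatever its assigned gene, there were 6, 5, 4 and 1 peaks in Hoxa, Hoxb, Hoxc and Hoxd. That was 5.69, 2.87, 3.46 and 1.03 peaks per 100 kb, against 2.13 over the annotated span of the genome. Peaks covered 1.73% of the Hoxa span, 0.638% of Hoxb, 0.909% of Hoxc and 0.408% of Hoxd. The longest stretch without a peak was 77.9 kb, in Hoxb, on the side of Hoxb13. By position, 2 of 8 anterior genes (paralogue groups 1 to 3), 5 of 15 central genes (4 to 8) and 3 of 16 posterior genes (9 to 13) had a peak. Peaks were thus found in all 3 ranges. Hoxa7, Hoxb6 and Hoxb8 rest on the loosest match of an identifier to a gene, with a span shared with the RefSeq gene of 0.412, 0.274 and 0.332 of their union, against at least 0.5 for the other Hox genes with a peak.

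All 11 peaks were annotated to promoters in the wide sense, 8 within 1 kb of a start and 3 at 1 to 3 kb (Hoxa3, Hoxb8 and Hoxc8). They held few counts. Their median was 5.10 CPM in the Ythdc1 CKO library and 5.03 CPM in the Ythdc1flox/flox library, with CPM taken over the counts in all peaks (6466537 in Ythdc1 CKO and 6755590 in Ythdc1flox/flox). Over all 58076 peaks the medians were 9.28 CPM in Ythdc1 CKO and 9.62 CPM in Ythdc1flox/flox. Per kb of peak the Hox medians were 22.0 CPM per kb in Ythdc1 CKO and 17.8 in Ythdc1flox/flox, against 26.3 in Ythdc1 CKO and 27.2 in Ythdc1flox/flox for all peaks. Among all peaks ranked by mean CPM of both libraries, the median Hox peak lay at percentile 15.2, and Hoxa7 alone, at percentile 58.0, was in the upper part, above the median of all peaks. The 8 promoter peaks within 1 kb had medians of 5.03 CPM in Ythdc1 CKO and 4.14 CPM in Ythdc1flox/flox, against 20.9 CPM in Ythdc1 CKO and 21.3 CPM in Ythdc1flox/flox for 19366 promoter peaks. These levels are not per length, and Hox promoter peaks were 200 to 496 bp wide with a median of 220.5 bp, against 577 bp for all promoter peaks. Per kb of peak, the Hox promoter medians were 23.0 CPM per kb in Ythdc1 CKO and 15.7 in Ythdc1flox/flox, against 37.4 in Ythdc1 CKO and 37.7 in Ythdc1flox/flox for all promoter peaks.

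Together the Hox peaks held nearly the same signal in both genotypes. Their counts summed to 385 in Ythdc1 CKO (exact Poisson 95% interval 347 to 425) and 380 in Ythdc1flox/flox (343 to 420). The ratio of CPM was 1.06, with an exact (Clopper-Pearson) 95% interval of 0.916 to 1.22. Its log2 value was 0.08, and -0.09 on the authors' RPM scale, which moves every log2 ratio by -0.17. Single peaks lay on both sides of 1, with 6 higher and 5 lower in Ythdc1 CKO on the CPM scale. Among all peaks, 45.9% were higher in Ythdc1 CKO.

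**Figure D2:**
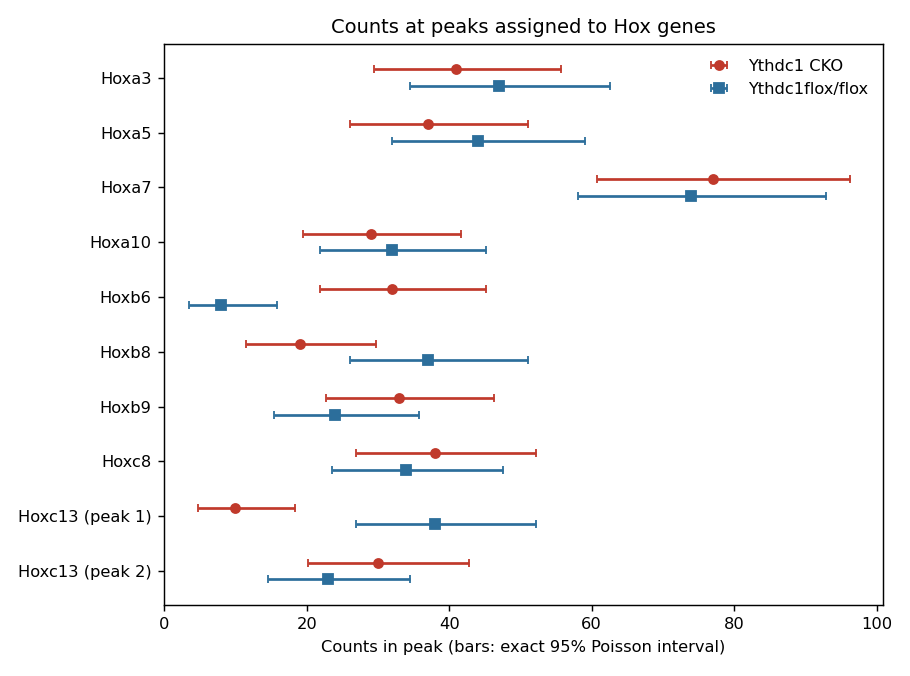
Counts at 10 of the 11 Hox peaks in the Ythdc1 CKO library (circles) and the Ythdc1flox/flox library (squares), with exact 95% Poisson intervals for counting error. The highest values are the 77 and 74 counts of Hoxa7, and the intervals of the 2 libraries are apart at Hoxb6 and at the first Hoxc13 peak.

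In the anterior range, Hoxa3, a gene of pharyngeal arch development, had 41 counts in Ythdc1 CKO and 47 in Ythdc1flox/flox (chr6:52211587-52211880), a ratio of 0.911 (0.585 to 1.42). No peak was assigned to 6 of the 8 anterior genes.

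In the central part, the strongest Hox peak was that of Hoxa7 (chr6:52221486-52221981), a gene of trunk patterning, with 77 counts in Ythdc1 CKO and 74 in Ythdc1flox/flox. Its ratio was 1.09 (0.780 to 1.52), and it was called in both libraries. Hoxa5, needed for lung development, had 37 counts in Ythdc1 CKO and 44 in Ythdc1flox/flox (chr6:52203697-52204091), a ratio of 0.878 (0.552 to 1.39). Hoxc8, a gene of thoracic patterning with a peak 2838 bp before its start by the authors' annotation (chr15:102987524-102987769), had 38 counts in Ythdc1 CKO and 34 in Ythdc1flox/flox, a ratio of 1.17 (0.716 to 1.91). None of these 3 differences exceeded counting error.

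Hoxb6 and Hoxb8, which flank Hoxb7 in the middle of the Hoxb cluster, lay on opposite sides of 1. Hoxb6, a gene of trunk patterning, had 32 counts in Ythdc1 CKO and 8 in Ythdc1flox/flox at a 200 bp peak 294 bp after a start in the authors' annotation (chr11:96299465-96299664). That is a ratio of 4.18 (1.89 to 10.5), the largest among the Hox peaks, at the peak with the lowest mean signal of the 11, percentile 3.88 of all peaks. Hoxb8, a gene known for its use in myeloid progenitors, had 19 counts in Ythdc1 CKO and 37 in Ythdc1flox/flox (chr11:96284465-96284709), a ratio of 0.536 (0.291 to 0.957). The first peak was called in Ythdc1 CKO alone and the second in Ythdc1flox/flox alone. By RefSeq starts, the first peak lay 6651 bp from Hoxb6 and 3848 bp from Hoxb5. The second lay 5064 bp from Hoxb8 and 895 bp from Hoxb7. Their assignment to Hoxb6 and Hoxb8 thus rests on the authors' annotation. The remaining central genes, Hoxa4, Hoxa6, Hoxb4, Hoxb5, Hoxb7, Hoxc4, Hoxc5, Hoxc6, Hoxd4 and Hoxd8, had no assigned peak.

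In the posterior part, Hoxa10, a gene of lumbar and uterine patterning, had 29 counts in Ythdc1 CKO and 32 in Ythdc1flox/flox (chr6:52240461-52240664), a ratio of 0.947 (0.553 to 1.62). Hoxb9, a thoracic gene, had 33 counts in Ythdc1 CKO and 24 in Ythdc1flox/flox (chr11:96272213-96272412), a ratio of 1.44 (0.824 to 2.54). Both intervals hold 1. Hoxc13, which is known for its role in hair and nails, had peaks on both sides of 1 within its first kb. The peak nearer the start (chr15:102921353-102921727) had 10 counts in Ythdc1 CKO and 38 in Ythdc1flox/flox, a ratio of 0.275 (0.122 to 0.562). The second (chr15:102922038-102922268) had 30 counts in Ythdc1 CKO and 23 in Ythdc1flox/flox, a ratio of 1.36 (0.765 to 2.46). The other 13 posterior genes had no assigned peak, among them the other 3 genes of paralogue group 13.

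**Figure D3:**
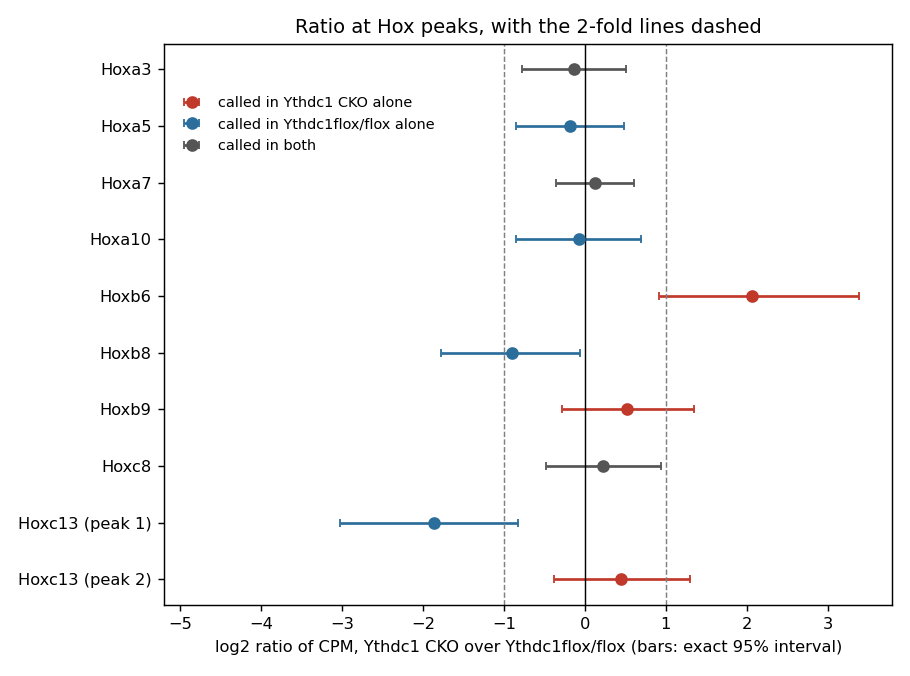
Log2 ratio of CPM without pseudocount, Ythdc1 CKO over Ythdc1flox/flox, at 10 of the 11 Hox peaks with exact 95% intervals for counting error, coloured by the library in which the authors called the peak. The 3 peaks shown that were called in Ythdc1 CKO alone lie to the right of 0 and the 4 called in Ythdc1flox/flox alone to the left, and the 3 called in both lie near 0.

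A 2-fold difference, a fixed rule of size on CPM with 0.5 counts added, was passed by 3 of the 11 peaks. Of these, 2 were higher in Ythdc1 CKO, among them Hoxb6, and 1, the first Hoxc13 peak, was lower. Over all peaks 15.0% passed this rule, 6.09% higher and 8.96% lower, and 20.5% did so among the 31446 peaks with a mean CPM in the range of the Hox peaks. The counting interval excluded 1 at 4 of the 11 Hox peaks, the same 3 and Hoxb8, against 39.4% of all peaks and 39.6% of those in the same range of signal. All 3 peaks past 2-fold lay within 1 kb of a start, which is 3 of 8 Hox peaks there, against 5.56% of all promoter peaks, whose median count was 135 in Ythdc1 CKO and 144 in Ythdc1flox/flox (32.5 and 28 for the Hox peaks there). The upper bound of the interval was 1.94 to 5.57 times the lower one. At the 7 peaks whose interval holds 1, ratios ran from 0.878 to 1.44, and no difference was detectable at this depth. The narrowest of these intervals was that of Hoxa7 (0.780 to 1.52).

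The direction of the ratio followed the library in which a peak was called. Of the 11 Hox peaks 3 were called in both libraries (Hoxa3, Hoxa7 and Hoxc8), 4 in Ythdc1 CKO alone and 4 in Ythdc1flox/flox alone. Over all peaks 55.0% were called in both, but only 30.7% of the peaks with a mean CPM in the range of the Hox peaks. Log2 ratios ranged from 0.44 to 2.00 in the Hox peaks called in Ythdc1 CKO alone, from -1.81 to -0.08 in those called in Ythdc1flox/flox alone, and from -0.13 to 0.22 in those called in both. Of all peaks of the same kind, 97.9% called in Ythdc1 CKO alone and 7.30% called in Ythdc1flox/flox alone were higher in Ythdc1 CKO. A peak called in 1 library alone is selected for its count there, so the ratios of Hoxb6, Hoxb8 and Hoxc13 carry that selection. Past 2-fold were 2 of the 4 Hox peaks called in Ythdc1 CKO alone, against 35.3% of such peaks that were higher, and 1 of the 4 called in Ythdc1flox/flox alone, against 28.9% that were lower. At the 3 Hox peaks called in both, none passed 2-fold, against 1.87% of such peaks in the table.

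**Figure D4:**
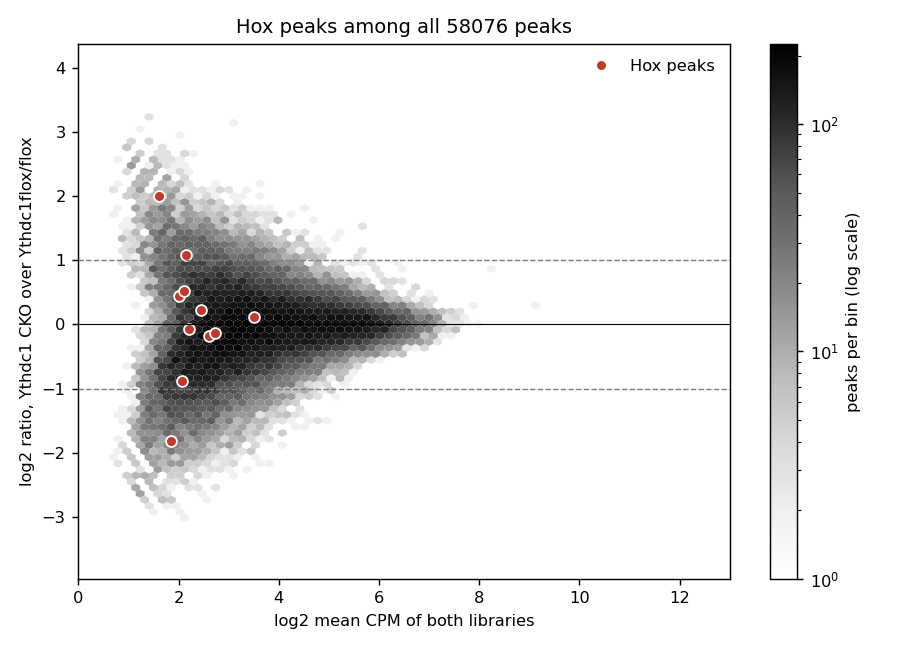
All 58076 peaks as grey bins by log2 mean CPM (x axis) and log2 ratio of Ythdc1 CKO over Ythdc1flox/flox (y axis), with the 11 Hox peaks as red points and dashed lines at 2-fold. The Hox peaks have mean CPM between 3.07 and 11.4, and 3 of them lie past the dashed lines.

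Summed by cluster, the differences stayed within counting error. The peaks of Hoxa held 223 counts in Ythdc1 CKO and 216 in Ythdc1flox/flox, a ratio of 1.08 (0.890 to 1.31). Those of Hoxb held 84 in Ythdc1 CKO and 69 in Ythdc1flox/flox, a ratio of 1.27 (0.914 to 1.77). Those of Hoxc held 78 in Ythdc1 CKO and 95 in Ythdc1flox/flox, a ratio of 0.858 (0.627 to 1.17). The intervals of Hoxa, Hoxb and Hoxc all hold 1 and overlap each other, and Hoxd had no assigned peak to sum. Single peaks set the side of 1 for Hoxb and Hoxc. Without Hoxb6 the log2 ratio of Hoxb was -0.17 in place of 0.35, and without the first Hoxc13 peak that of Hoxc was 0.32 in place of -0.22.

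Along the axis the summed ratio was 1.08 for the central genes (203 counts in Ythdc1 CKO and 197 in Ythdc1flox/flox, interval 0.881 to 1.32). It was 0.911 for the posterior genes (102 counts in Ythdc1 CKO and 117 in Ythdc1flox/flox, interval 0.691 to 1.20). The intervals overlap and each holds 1. Without the peak that differed most in each range, the log2 ratio was -0.08 in place of 0.11 for the central genes and 0.28 in place of -0.13 for the posterior genes, so the order of the 2 ranges was not kept. The level per kb of peak was 19.8 CPM per kb in Ythdc1 CKO and 18.4 in Ythdc1flox/flox for the central genes. For the posterior genes it was 15.6 CPM per kb in Ythdc1 CKO and 17.1 in Ythdc1flox/flox.

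The 5 peaks over the clusters that were assigned to other identifiers had log2 ratios from -0.38 to 0.78, with 2 above 0. The only peak over the Hoxd cluster (chr2:74715782-74716176), called in both libraries and within the RefSeq span of Hoxd3 on the opposite strand, had 61 counts in Ythdc1 CKO and 37 in Ythdc1flox/flox. Its ratio of 1.72 had an interval of 1.13 to 2.67, where 39.4% of all peaks had an interval that excludes 1. The peaks in Hoxb (chr11:96311612-96311864, within the span of Hoxb3, and chr11:96353320-96353531, within that of Hoxb2) had 43 counts in Ythdc1 CKO and 50 in Ythdc1flox/flox for the first, and 27 in Ythdc1 CKO and 37 in Ythdc1flox/flox for the second. The peak in Hoxc (chr15:102943284-102943483) had 23 counts in Ythdc1 CKO and 27 in Ythdc1flox/flox. The intervals of these 3 hold 1.

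Genes that act with Hox proteins or regulate the clusters were described by the strongest promoter peak of each gene. In every list a gene also counts as without a peak where no identifier could be matched to it. All 9 of the TALE cofactor genes (the Pbx, Meis and Pknox genes), whose products bind DNA together with Hox proteins, had a promoter peak. Their median log2 ratio at the strongest promoter peak was 0.17, 6 above 0 and 3 below, against -0.02 over 13300 genes with a promoter peak and a symbol. Meis3 passed 2-fold, with 99 counts in Ythdc1 CKO and 32 in Ythdc1flox/flox (ratio 3.23, 2.15 to 4.98). Its peak was called in Ythdc1 CKO alone, and 3.29% of all strongest promoter peaks passed 2-fold in either direction. Pbx4 had 167 counts in Ythdc1 CKO and 94 in Ythdc1flox/flox (ratio 1.86, 1.43 to 2.42). By the same measure the 7 Hox genes with a promoter peak had a median log2 ratio of 0.44, 5 above 0 and 2 below, where 46.3% of all such peaks were above 0. Hoxc13 enters there with its second peak, and with the average of both its peaks the Hox median was 0.12. Of the 8 Hox peaks within 1 kb of a start, 1 was called in both libraries, 4 in Ythdc1 CKO alone and 3 in Ythdc1flox/flox alone. Of all promoter peaks, which hold more counts, 76.7% were called in both. The split of 5 and 2 thus carries the selection by call.

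All 19 Polycomb genes, whose products keep Hox clusters silent, had a promoter peak, with a median log2 ratio of -0.05, 8 above 0 and 11 below, and none passed 2-fold. Among the largest differences were Rbbp7 (198 counts in Ythdc1 CKO and 317 in Ythdc1flox/flox, ratio 0.653) and Bmi1 (122 counts in Ythdc1 CKO and 80 in Ythdc1flox/flox, ratio 1.59). The Rbbp7 peak was called in both libraries and the Bmi1 peak in Ythdc1 CKO alone. Of 12 trithorax and MLL genes, whose products keep Hox genes active, 10 had a promoter peak, with a median log2 ratio of 0.07 and none past 2-fold. Kmt2b, which encodes a histone methyltransferase of the MLL family, had 66 counts in Ythdc1 CKO and 99 in Ythdc1flox/flox (ratio 0.696, 0.502 to 0.961). Its peak was called in Ythdc1flox/flox alone. Of the Cdx and Evx genes, 5 homeobox genes tied to the clusters by regulation or position, 0 had a promoter peak. Other homeobox regulators of development had a promoter peak in 16 of 31 cases, with a median log2 ratio of 0.12.

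**Figure D5:**
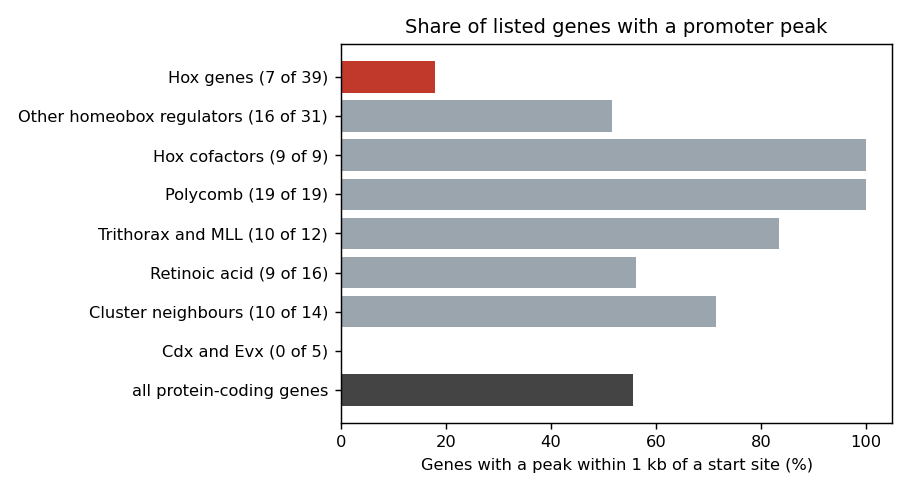
Share of the genes of each list, in percent, with a peak within 1 kb of a start site, with the number of genes in brackets. Hox genes stand at 17.9%, other homeobox regulators at 51.6% and all protein-coding genes at 55.6%.

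Hearts hold several cell types, and in whole tissue a site open in fewer cells and a site less open per cell cannot be told apart. Cardiomyocyte markers had a promoter peak in 7 of 8 cases, all but Nppa, to which no peak of any class was matched. The 4 largest differences of that list were all lower in Ythdc1 CKO with intervals under 1, at Myl2 (172 counts in Ythdc1 CKO and 296 in Ythdc1flox/flox, ratio 0.607), Pln (ratio 0.687), Tnni3 (0.699) and Ryr2 (0.734). Of the other 3, Actn2 and Tnnt2 had ratios of 1.15 and 1.14 and Myh6 of 0.991, and their intervals hold 1 (0.922 to 1.43, 0.996 to 1.30 and 0.896 to 1.10). Over all peaks, the counting interval excluded 1 at 39.4%. The peaks of Myl2 and Pln were called in Ythdc1flox/flox alone, so their ratios carry the selection described above. Those of Tnni3, Ryr2, Actn2, Tnnt2 and Myh6 were called in both libraries. The summed level of the cardiomyocyte markers was 316 CPM in Ythdc1 CKO and 353 CPM in Ythdc1flox/flox, with a median log2 ratio of -0.44. Endothelial markers summed to 184 CPM in Ythdc1 CKO and 143 CPM in Ythdc1flox/flox over 8 of 8 genes (median log2 ratio 0.45). Smooth muscle and pericyte markers summed to 104 CPM in Ythdc1 CKO and 89.6 CPM in Ythdc1flox/flox over 6 of 8 (0.24). Fibroblast markers summed to 110 CPM in Ythdc1 CKO and 90.0 CPM in Ythdc1flox/flox over 6 of 8 (0.05), and epicardial markers to 49.5 CPM in Ythdc1 CKO and 45.0 CPM in Ythdc1flox/flox over 3 of 6 (0.19). Pdgfra of the fibroblast list alone had 57.2 CPM in Ythdc1 CKO and 40.3 CPM in Ythdc1flox/flox. Tagln of the smooth muscle list had 25.5 CPM in Ythdc1 CKO and 14.4 CPM in Ythdc1flox/flox, so single genes weigh on these sums. The peaks of Col1a2, Tagln and Sox18 were called in Ythdc1 CKO alone, and those of Dcn and Postn in Ythdc1flox/flox alone. Their ratios carry the same selection. No promoter peak was matched to Lum and Dpt, Rgs5 and Notch3, and Upk3b, Msln and Upk1b of those lists, nor to any of the 7 myeloid markers. A closed promoter and an identifier without a symbol cannot be told apart there. Of the 7 cardiomyocyte markers 2 had a log2 ratio above 0 and 5 below, and of the 8 endothelial markers 7 above and 1 below. Fibroblast markers split 3 and 3, smooth muscle and pericyte markers 5 and 1, and epicardial markers 2 and 1. No marker of these lists passed 2-fold. Among all strongest promoter peaks 46.3% were above 0 and 3.29% passed 2-fold. The part of these markers in the Hox ratios was not tested.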

How the data were processed

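ATAC-seq libraries were made from nuclei of mouse heart, 1 per genotype, and sequenced as paired ends, per the labels' protocols. BWA, MACS2 and the GRCm38.p6 build are listed in the submitters' processing notes. Versions, read filters, duplicate removal and any Tn5 shift: not given in the sources used here. Per the file headers, the authors deposited whole-number counts per merged peak, RPM, fold enrichment as a ratio, and a log2 ratio of RPM. The authors' RPM equals (count + 1) times a constant per library, 0.01822 in Ythdc1 CKO and 0.01965 in Ythdc1flox/flox, and the fold enrichment follows (count + 1) per base with starts counted from 1.

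The table has identifiers without symbols. Of 24480, 18590 (75.9%) took a RefSeq symbol by position, with an overlap over union of at least 0.5 and 2 times the next, both ends within 1 kb, or 95% of the span inside 1 coding gene. Hox identifiers needed the strand of the cluster, gene ontology terms and an overlap of at least 0.25. It was under 0.5 at 3 of them (Hoxb6 0.274, Hoxb8 0.332, Hoxa7 0.412). Members, lists and rules were chosen with earlier results of these data known. Named were Hox peaks and up to 4 members per list in order of size of difference, and exceptions (Lnpk, Mtx2, Skap2, Actn2, Tnnt2, Myh6 and Sox18) were chosen after their values were seen. For each peak log2 ratios used CPM over the table with 0.5 counts added. Exact 95% intervals (scipy 1.17.1) were tested on data simulated with Poisson counting error alone, so that test cannot speak to spread between libraries. Alternatives included TMM (edgeR 4.0.16), the median of ratios, RPM and a loess trend (statsmodels 0.14.6). With 1 library per group, genotype and library cannot be told apart. The values of 1 Hox gene, and the sum over the anterior genes, are not reported here. The sequences are those of RefSeq, GRCm38.p6.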

Additional observations from a re-analysis of the deposited data

How the results depend on the processing

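No paired analysis was possible because each genotype had 1 library. Of 70 alternative values of the summary results, 56 stayed within counting error or within 1.5 times the count, and all 50 of the single peaks did. A change of sign within counting error counts as staying. The intervals of single Hox peaks are wide, with upper bounds 1.94 to 5.57 times the lower ones. The tally therefore cannot show that the values are robust. On the authors' RPM scale 1 Hox peak was at least 2-fold higher and 2 lower, in place of 2 and 1, and the summed log2 ratios of Hoxa and of the central genes were -0.06 and -0.07, in place of 0.11 and 0.11. With 5 counts added 1 peak was higher. Among the 3 peaks called in both libraries 0 were higher and 0 lower, and likewise for the 1 peak in the upper part of signal. By a 1.5-fold rule 2 were lower. The median log2 ratio of Hox promoters, 0.44, was 0.72 with a loess trend removed, 0.17 with promoters within 3 kb, and 0.12 with the average of all promoter peaks of a gene. Without the peak that differed most, an alternative chosen after seeing the data, log2 ratios were -0.17 for Hoxb, 0.32 for Hoxc and 0.28 for the posterior genes. Values for Hoxb and for posterior genes could not be given for peaks called in both, nor for Hoxb, Hoxc and posterior genes in the upper part of signal, since no peak was left. Leaving out the peak that differed most gave -0.04 for Hoxa and -0.08 for the central genes. Among peaks called in both, the value of Hoxc was 0.22. The cause was not tested. Depths of 8 to 77 counts per Hox peak limit all of these.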

Other observations

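Genes around the clusters and in retinoic acid signalling were described by the same promoter measure. Of 14 neighbours of the clusters, 10 had a promoter peak, with a median log2 ratio of -0.09, 3 above 0 and 7 below. Lnpk and Mtx2, which flank the Hoxd cluster, had 259 counts in Ythdc1 CKO and 245 in Ythdc1flox/flox for Lnpk, and 160 in Ythdc1 CKO and 177 in Ythdc1flox/flox for Mtx2. These and Skap2 were named for their position, after their values were seen. Skap2, beyond the anterior end of Hoxa, had 369 counts in Ythdc1 CKO and 435 in Ythdc1flox/flox. The largest differences were those of Jazf1, with 22 counts in Ythdc1 CKO and 34 in Ythdc1flox/flox (ratio 0.676, 0.377 to 1.19), and Hibadh. The Jazf1 peak was called in Ythdc1flox/flox alone. Hibadh, beyond the posterior end of Hoxa, had 283 in Ythdc1 CKO and 419 in Ythdc1flox/flox (ratio 0.706).

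Of 16 retinoic acid genes, which include the receptors and the enzymes that make and degrade it, 9 had a promoter peak, with a median log2 ratio of -0.22, 4 above 0 and 5 below, and none past 2-fold. Rxrg, a retinoid receptor gene, had 97 counts in Ythdc1 CKO and 159 in Ythdc1flox/flox (ratio 0.637). Rxra, another retinoid receptor gene, had 103 counts in Ythdc1 CKO and 152 in Ythdc1flox/flox (ratio 0.708, 0.546 to 0.915). Aldh1a2, which makes retinoic acid and is also on the epicardial list, had 70 counts in Ythdc1 CKO and 54 in Ythdc1flox/flox (ratio 1.35, 0.936 to 1.97).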
